A study of Homo sapiens with 2 samples.

Results

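The 46 genes described here encode nuclear receptors, and they were taken from a fixed list of gene symbols. The list uses no measured value, but it was chosen with earlier results of these data known. All 46 were found among the 19974 protein-coding genes of the RefSeq table used, on GRCh38. The measurement was the chromatin binding of ETV4, an ETS-family transcription factor, by ChIP-seq. Peaks were assigned to a receptor gene when the peak interval lay within 10 kb of the gene span. By that rule 181 of the 54389 peaks of the experiment, or 0.333%, belonged to at least 1 receptor gene.

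The experiment had 1 immunoprecipitate, made with an anti-Flag antibody, and 1 input. The cells were of A549, an established line of human lung adenocarcinoma, in which an shRNA had reduced ETV4 and a plasmid with Flag-tagged ETV4 was then transfected. The tagged protein is therefore expressed from a plasmid, and no untransfected or untagged immunoprecipitate was analysed here. For the antibody the labels name Sigma and the study's methods name CST. With 1 immunoprecipitate there was no replicate, so no SD and no test between groups can be given, and every comparison below is a description of a single library.

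Nuclear receptors are transcription factors that share a zinc-finger domain for DNA binding and a domain that can hold a small lipid-like ligand such as a steroid, retinoic acid, vitamin D, a fatty acid or an oxysterol. Many bind DNA as heterodimers with a retinoid X receptor, at repeats of the motif AGGTCA, and others, the orphan receptors, have no settled ligand. In the lung epithelium the glucocorticoid receptor, the retinoic acid receptors and PPARγ are known for their parts in maturation, surfactant production and repair. A peak in these data marks DNA bound in the neighbourhood of a receptor gene and gives no measure of the amount of receptor RNA or protein.

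ETV4 peaks were found near nearly every receptor gene, at strengths much like those of peaks elsewhere. Of the 46 receptor genes, 42 had at least 1 peak within 10 kb, or 91.3%, while 81.9% of all protein-coding genes had one. The same pattern was seen for stronger peaks. A peak of 10-fold enrichment or more over the control lay near 40 receptor genes, or 87.0%, beside 65.6% of all genes. Receptor genes are longer than most, with a median length of 50.9 kb beside 24.2 kb, and long genes offer more room for peaks. Within length classes the shares were close for the longer genes and apart for the short ones. Of the 12 receptor genes under 20 kb, 11 had a peak, beside 71.6% of all genes of that length. Of the 17 from 20 kb to 100 kb, 15 had one, beside 88.1%, and of the 17 over 100 kb, 16 had one, beside 95.4%. Per 100 kb of gene and flanks, pooled over genes, the receptors had 2.68 peaks and all genes 2.90. The pooled value gives long genes the most weight. In genes of 3 to 10 kb the median number of peaks was 2 for receptors and 1 for all genes. From 10 to 30 kb and from 30 to 100 kb it was 4 and 2. From 100 to 300 kb it was 3 for both, and from 300 kb to 1 Mb it was 4 and 6.

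The strength of these peaks was also ordinary. Fold enrichment, as the peak list gives it, is the height of the immunoprecipitate at the summit over that of the control. Its median was 9.04 over the 181 receptor peaks and 9.63 over all peaks, and the receptor peaks ranged from 2.97 to 122.6. The number of DNA fragments stacked at the summit, called the pileup here, was recovered from the fold and the p-value of each peak. It had a median of 28 fragments for receptor peaks, from 6 to 577, and of 26 for all peaks. Each pileup below is followed by its exact Poisson 95% interval, which covers counting error only. The highest fold of each receptor gene had a median of 22.0 over the 42 genes with a peak, against 22.3 for all genes with one.

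**Figure D1:**
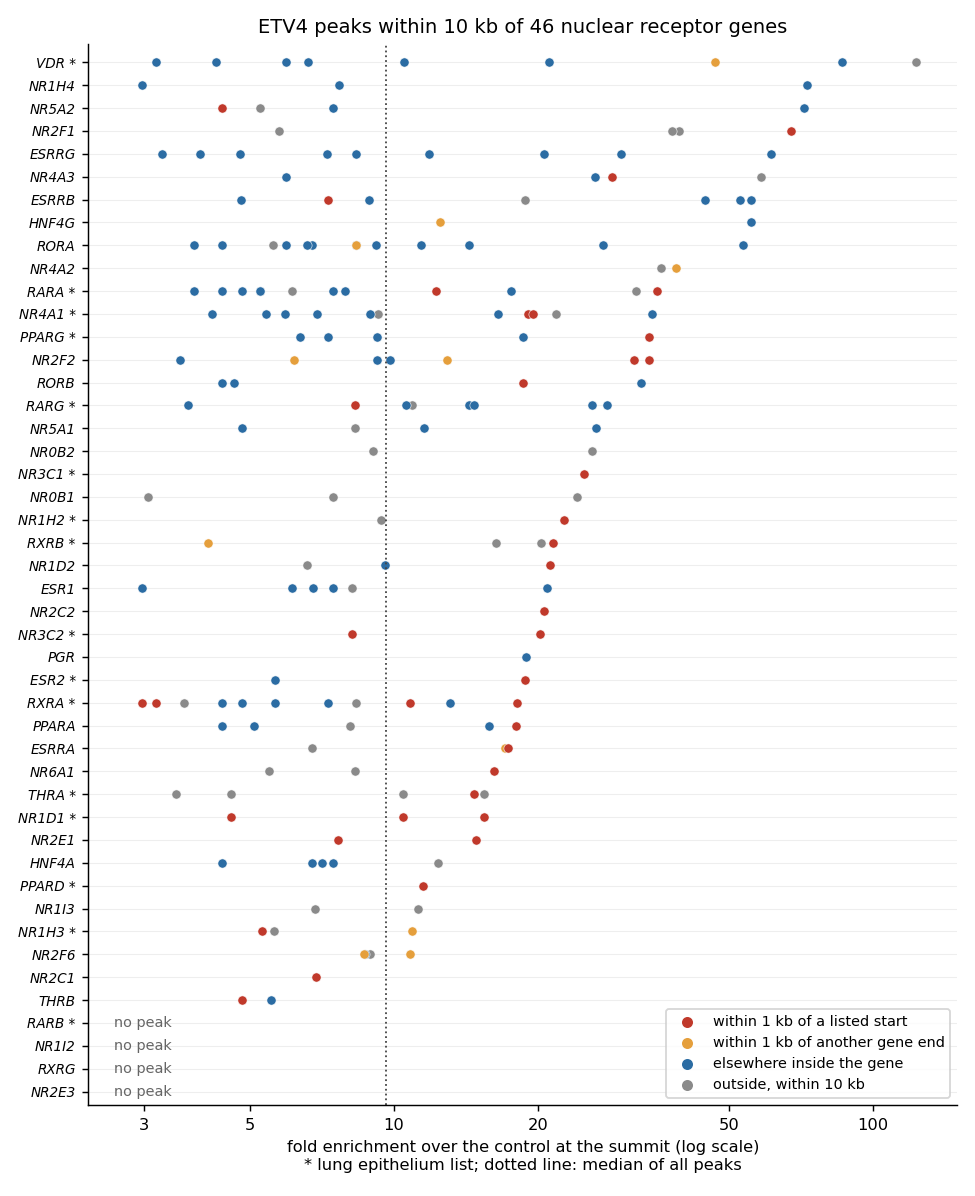
Each point is 1 ETV4 peak, placed by its fold enrichment over the control (horizontal, log scale) in the row of the receptor gene within 10 kb of it, with colours for its position and rows ordered by the highest fold. VDR leads with a peak of 122.6-fold, most of the strongest peaks are inside genes, and the bottom 4 rows have no peak.

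Peaks at transcription starts were the strongest class, and peaks inside genes the most frequent. Counted per gene, which counts 4 peaks shared by neighbouring receptor genes for each of them, 38 peaks lay within 1 kb of a start listed for that gene by RefSeq, 11 within 1 kb of another gene end, 96 elsewhere inside a gene and 40 outside it. VDR, NR4A2, HNF4G, NR2F6 and NR0B2 have no listed start, so any peak at a start of theirs falls in the other classes. The 11 include peaks of 46.7-fold at VDR and 38.8-fold at NR4A2, and the peak at the 5′ end of RORA. The peaks at starts had a median fold of 16.7 and a median pileup of 46.5 fragments. Those inside genes had medians of 7.44-fold and 20 fragments. At the top of the range, peaks inside genes were again the most frequent. Of the 11 receptor peaks of 50-fold or more, 8 were inside genes, 2 in the flanks and 1 at a start. Those of VDR and HNF4G could not fall in the start class. No like split is given here for all 3295 peaks of that strength. The values were known when the 50-fold limit was set. Such a peak lay near 9 of the 46 receptor genes, or 19.6%, beside 11.7% of all genes, while 6.08% of the receptor peaks and 6.06% of all peaks were that strong.

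Subfamily NR1, which holds the receptors for thyroid hormone, retinoic acid, vitamin D, fatty acids and oxysterols along with the REV-ERB and ROR receptors of the clock, had 18 genes, of which 16 had a peak and 13 had one within 1 kb of a gene end. Over all protein-coding genes, 62.3% had a peak at an end, and over the 46 receptors 29 did, or 63.0%. VDR, the receptor for calcitriol, held the highest fold of all receptors. Its 122.6-fold peak (chr12:47908474-47909281) had a pileup of 577 fragments (531 to 626) and its summit lay 3.92 kb beyond the upper-coordinate end of the gene. A second peak, of 86.2-fold and 551 fragments (506 to 599), lay inside the gene, 18.3 kb from its lower-coordinate end. One more, of 46.7-fold and 237 fragments (208 to 269), covered the upper-coordinate end. The intervals of the first 2 pileups overlap, and that of the last lies below both. The other 6 peaks of VDR were all inside the gene, at 3.19- to 21.0-fold.

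The control was also high around VDR. The level computed for the control at its 9 peaks had a median of 4.10 and ranged from 3.48 to 7.76, whereas the median over all 54389 peaks was 1.67 and the 90th percentile 3.04. The 70 other peaks within 1 Mb had a median control level of 2.73. The fold already divides by this level, so the order of folds and the order of pileups can differ between genes, and the part of the local control level in the VDR values was not tested.

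The retinoic acid receptors differed widely among themselves. RARA, the alpha receptor for retinoic acid, had 12 peaks in and around 48.5 kb of gene, the second highest number of any receptor. Its outermost listed start had no peak within 1 kb, while the second, 9.07 kb into the gene, had one of 12.2-fold and the third, 33.0 kb in, had one of 35.4-fold. The latter (chr17:40340959-40344618) was 3660 bases wide with a pileup of 106 fragments (86.8 to 128). RARG, the gamma receptor and the form typical of skin and other lining epithelia, had 8 peaks along 21.6 kb. Its strongest were a pair inside the gene at 27.9- and 25.9-fold, with overlapping pileups of 78 (61.7 to 97.3) and 80 fragments (63.4 to 99.6), and its start had only 8.28-fold. RARB, the beta receptor and a retinoid-induced gene often silenced in lung cancer, had no peak at all within 10 kb, although it is the longest of the 46 genes at 768.6 kb and has 4 listed starts. The nearest peak was 15.7 kb away and weak, with 3.503-fold and 7 fragments.

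The 3 PPAR genes, whose products sense fatty acids, each had a peak at the start. At PPARG, the regulator of lipid storage, it was 34.1-fold with 78 fragments (61.7 to 97.3) and lay near the first 3 of 6 listed starts, within 1.70 kb of the 5′ end. The other 3 starts, up to 64.0 kb into the gene, had none. A second PPARG peak of 18.6-fold lay 119 kb from the 5′ end. PPARA reached 18.0-fold and 40 fragments (28.6 to 54.5) at its start and 15.8-fold inside the gene. PPARD had 1 peak, of 11.5-fold, with 57 fragments (43.2 to 73.9) over a control level of 4.05. The PPARD pileup interval overlaps that of PPARA although the fold is lower.

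RORA, an orphan receptor that opposes the REV-ERB repressors in the circadian clock, had the most peaks of all, 13, spread over 741 kb. All but 2 were inside the gene. The highest, of 53.5-fold and 179 fragments (154 to 207), lay 131 kb from the 5′ end, and the next, of 27.2-fold, lay 637 kb from it. At the 5′ end itself the fold was 8.32, and the single start listed for RORA, deep in the gene, had no peak within 1 kb. RORB, its relative in retina and brain, had 32.7-fold inside the gene and 18.6-fold at the start. The REV-ERB genes NR1D1 and NR1D2 had start peaks of 15.4- and 21.2-fold. THRA, which encodes a thyroid hormone receptor, overlaps NR1D1 at its 3′ end, and 3 of the 5 peaks counted for THRA are the NR1D1 start peaks. THRA had 14.7-fold at its own start, and THRB had a maximum of 5.53-fold with 12 fragments (6.20 to 21.0), the lowest of any receptor gene with a peak.

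Among the bile acid, oxysterol and xenobiotic receptors, NR1H4, which encodes the bile acid receptor FXR, had the second highest fold. It was 72.7 at a peak of 165 fragments (141 to 192) inside the gene, 40.0 kb from the 5′ end (chr12:100513476-100514443), and no NR1H4 peak lay at a gene end. The control level at this peak was 1.28, the lowest in the peak list at this precision, as it was at the highest peaks of NR5A2 and ESRRG. Peaks of NR4A3, ESRRB, NR4A2, HNF4G and RORA, among others, had lower folds but more fragments, for example 274 at NR4A3 and 179 at RORA. The oxysterol receptor genes NR1H2 and NR1H3 had 22.6- and 5.29-fold at their starts. The 10.9-fold peak at the 3′ end of NR1H3 is within 1 kb of a start of the neighbouring gene MADD. NR1I2, the xenobiotic receptor PXR of liver and gut, had no peak, the nearest being 103 kb away. NR1I3, the related receptor CAR, had none at a gene end and 2 of 6.84- and 11.2-fold in its flank, both nearer to the gene TOMM40L.

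**Figure D2:**
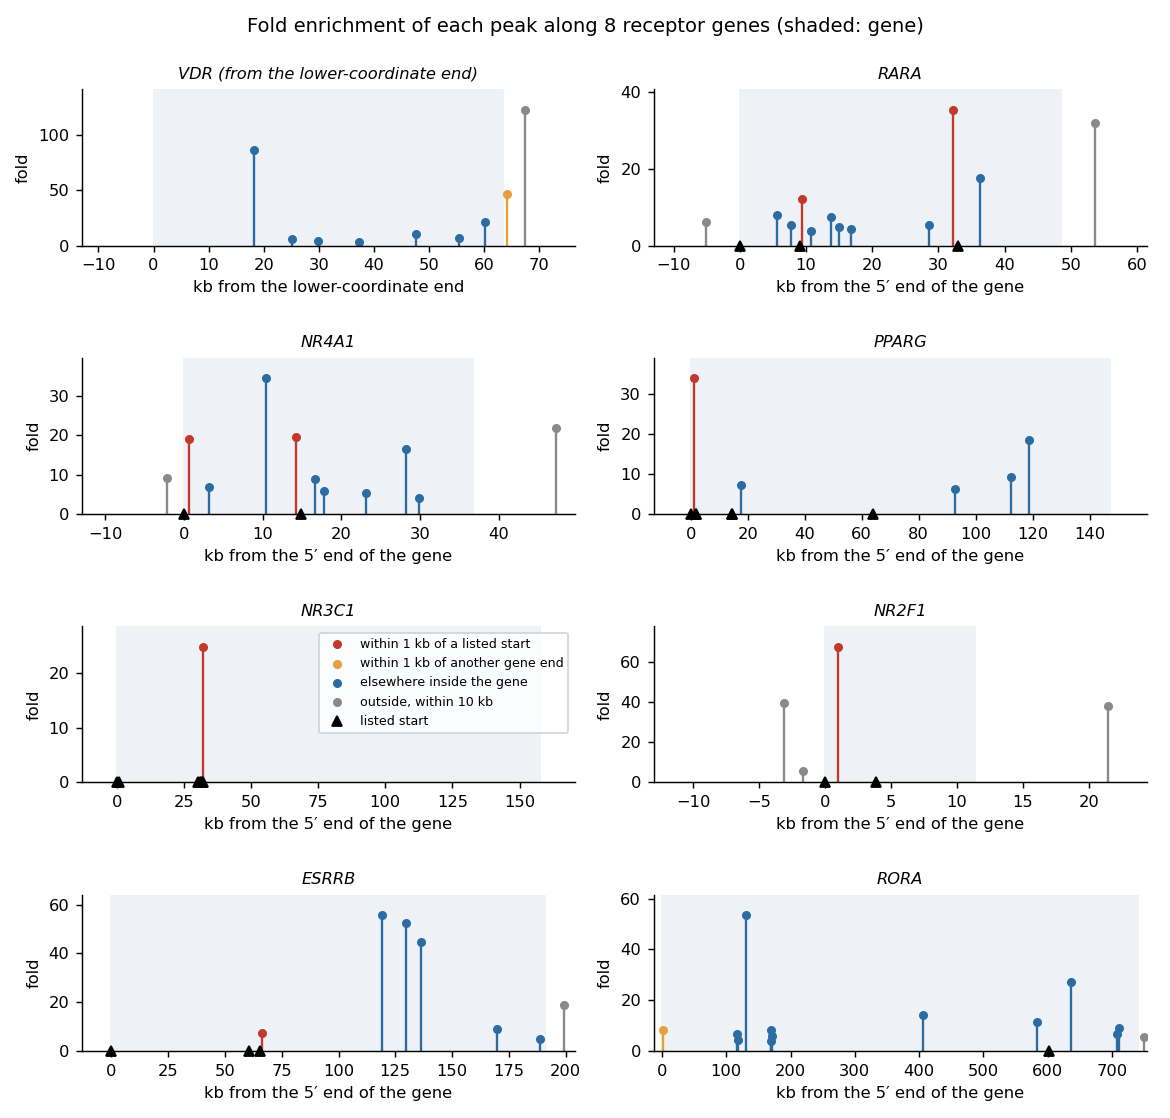
Vertical lines mark the peaks assigned to 8 receptor genes at their summits, with fold enrichment as the height (linear axis from 0 in each panel) and distance in kb along the gene; grey shading is the gene and triangles are its listed starts. At NR3C1 and PPARG the highest peak stands at a start, at ESRRB and RORA it stands deep inside the gene, and at VDR it stands beyond the upper-coordinate end.

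Of the 12 NR2 genes, which encode the retinoid X receptors, the COUP-TF orphans, the HNF4 receptors and their relatives, 10 had a peak and 9 had one at a gene end. NR2F1, which encodes COUP-TF1, had the only start peak of 50-fold or more in a receptor gene. It reached 67.4-fold with 159 fragments (135 to 186) at 980 bases into the gene (chr5:93583673-93585969). Flanking peaks of 39.3- and 38.0-fold lay on both sides of NR2F1, and a start of the antisense gene NR2F1-AS1 is within 1 kb of both the start peak and the upstream one. NR2F2, its close relative COUP-TF2, had 7 peaks around 14.2 kb of gene. That is 20.5 per 100 kb, the highest density among the receptors. The strongest NR2F2 peaks stood next to each other at the listed starts, with 34.0- and 31.6-fold and overlapping pileups of 95 (76.9 to 116) and 84 fragments (67.0 to 104). NR2F6 had 4 peaks, none above 10.8-fold.

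RXRA, the retinoid X receptor of most epithelia, had 11 peaks, but all were moderate. Both of its listed starts had a pair of peaks within 1 kb. The pair at the first start had 18.1- and 10.8-fold, and the pair at the second, 52.8 kb into the gene, had 3.18- and 2.97-fold. RXRB, the widely expressed form, had 21.5-fold and 93 fragments (75.1 to 114) at its start, with the summit 576 bases from an end of SLC39A7, and both of its flanking peaks were nearer to the genes HSD17B8 and RING1. RXRG, the form of muscle and brain, had none, and the nearest peak was 24.99 kb away with 4.38-fold. HNF4A and HNF4G are identity factors of liver and gut. HNF4A had 5 peaks of 4.38- to 12.3-fold, none at an end or a listed start. HNF4G had 55.5-fold and 227 fragments (198 to 259) inside the gene and 12.4-fold at its lower-coordinate end. The testicular receptors NR2C1 and NR2C2 had 1 peak each, at the start, of 6.86- and 20.6-fold. NR2E1, the neural stem cell receptor TLX, had 14.8- and 7.64-fold at its start. NR2E3, the photoreceptor gene, had none within 10 kb, although a peak of 15.3-fold lay 11.2 kb away, just outside the limit.

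The NR3 genes encode the receptors for oestrogen, progesterone, glucocorticoids and mineralocorticoids and the oestrogen-related orphans. All 8 had a peak within 10 kb, but only 3 had one at a gene end, namely ESR2, ESRRA and NR3C2. NR3C1, the glucocorticoid receptor and the receptor through which steroid drugs act in the airway, had a single peak within 10 kb of its 158 kb. This peak (chr5:143402541-143405805) was 3265 bases wide, with 24.9-fold and 91 fragments (73.3 to 112). It lay about 32.1 kb inside the outermost 5′ end, and starts 3 to 7 of the 7 listed for NR3C1 were within 1 kb of it. The outermost 2 starts had no peak. At NR3C2, the mineralocorticoid receptor, all 4 listed starts had one, with 20.1-fold at the first 3 and 8.19-fold at the fourth.

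Of the oestrogen receptor genes, ESR1 had 6 listed starts and no peak at any of them. Its 6 peaks were at 2.97- to 20.8-fold, the highest with 76 fragments (59.9 to 95.1) and 292 kb from the 5′ end. ESR2, the form more widely reported in lung, had 18.7-fold at the outer 2 of its 5 starts. PGR had 1 peak, of 18.8-fold, 76.0 kb from the 5′ end and none at its 3 starts. The orphan ESRRG, a driver of oxidative metabolism in heart and muscle, had 9 peaks, all inside 634 kb of gene and none at any of its 8 listed starts. Its strongest reached 61.3-fold with 139 fragments (117 to 164), 568 kb from the 5′ end (chr1:216568861-216569543). ESRRB, the form known from pluripotent cells and the inner ear, carried 3 strong peaks between 119 and 136 kb from its 5′ end, of 55.7-, 52.7- and 44.5-fold with 205 (178 to 235), 265 (234 to 299) and 165 fragments (141 to 192). The second had the highest pileup but not the highest fold, because its control level was 4.05 against 2.70 and 2.73 at the others. At the starts of ESRRB the highest value was 7.29-fold. ESRRA had 17.3-fold at its start, and the 17.0-fold peak beyond its 3′ end is within 1 kb of starts of PRDX5 and TRMT112.

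The NR4 genes are immediate-early orphan receptors induced by stress and growth signals. All 3 had a peak at a gene end. NR4A1 had 11 peaks around 36.7 kb, of which the highest, 34.5-fold with 112 fragments (92.2 to 135), stood 10.4 kb into the gene between its 2 listed starts, and these starts had 19.1- and 19.5-fold. NR4A2 had 2 broad peaks. The one at its upper-coordinate end had 38.8-fold and 221 fragments (193 to 252), and the one 9.97 kb beyond had 36.0-fold and 254 fragments (224 to 287), within 1 kb of a start of FLJ46875. The control level at these 2 peaks was 4.73 and 6.08, against a median of 2.85 at 18 other peaks within 1 Mb. NR4A3 had 58.4-fold and 274 fragments (243 to 308) at 2.28 kb before its start (chr9:99818481-99820559), 28.5-fold at the start and 26.3-fold inside the gene. Together the 3 genes had 11.3 peaks per 100 kb, against 2.68 for all receptors, whose genes are up to 769 kb long. Of the 17 peaks counted for the 3 genes, 11 were at NR4A1. For their length NR4A2 and NR4A3 were not exceptional. As many peaks as NR4A2 were found at 48.1% of genes of 3 to 10 kb, and as many as NR4A3 at 22.0% of genes of 30 to 100 kb.

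The remaining subfamilies had few members. NR5A2, which encodes LRH-1, a regulator of bile acid and steroid synthesis, reached 71.8-fold with 163 fragments (139 to 190) inside the gene, 11.9 kb from the 5′ end (chr1:200038987-200040012). Neither of its ends had a peak, and the second listed start had 4.38-fold with 9 fragments. NR5A1, the steroidogenic factor SF-1, had 26.4-fold 2.90 kb into the gene and none at an end or start. Its neighbour NR6A1, the germ cell nuclear factor, had 16.1-fold at its start, and 1 flanking peak of 8.30-fold is counted for both genes. NR0B1 and NR0B2, which encode repressors without a DNA-binding domain, had peaks in their flanks only. The highest was 24.1-fold at 1.32 kb before the start of NR0B1 and 25.9-fold at 7.80 kb from the upper-coordinate end of NR0B2, the latter within 1 kb of a start of NUDC.

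In sum over subfamilies, 17 receptor genes had no peak at an outer gene end, and 13 of these had one elsewhere within 10 kb. Of all 19974 genes, which are mostly shorter, 12444 had a peak at an end and 16357 had one within 10 kb. At 4 of the 13, namely RARA, NR3C1, ESRRB and NR5A2, a peak lay at a start inside the gene. Listed starts were available for 41 receptor genes, and 28 of them, or 68.3%, had a peak no more than 1 kb from 1 start or more, beside 64.5% of all genes with listed starts. Counted by start, 47 of 96 receptor starts had one, or 49.0%, beside 60.7% of all starts. Of the 24 receptor genes with 2 or more listed starts, 8 had a peak at every one, 10 at some and 6 at none. The 10 include NR3C1, RARA and PPARG. No like split is given here for all genes, so these counts do not show whether receptors differ in this. A peak elsewhere inside the gene was seen for 24 of the 46 receptors, or 52.2%, beside 34.7% of all genes.

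**Figure D3:**
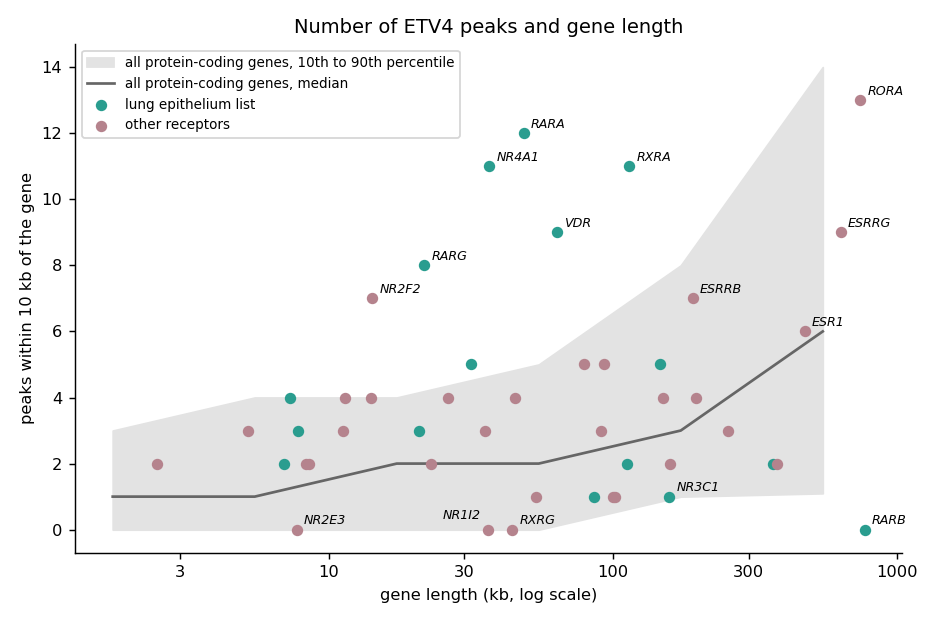
Points show gene length in kb (horizontal, log scale) and the number of peaks within 10 kb (vertical) for the 46 receptor genes; the line and band are the median and the 10th to 90th percentile of all protein-coding genes in 6 length classes. RARA, NR4A1, RARG, VDR, NR2F2 and RXRA stand above the 90th percentile of their length class. RARB is the only one below the 10th percentile of its class and lies to the right of the drawn band.

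The number of peaks was compared with that of genes of like length. Above the 90th percentile of their length class stood 6 of the 46 receptor genes, and 8.45% of all genes did so. These 6 were RARA, NR4A1, RARG, VDR, NR2F2 and RXRA, 5 of them on the lung epithelium list used below. With 1 Mb on either side, these genes lay among 5.66, 6.14, 6.88, 3.83, 2.23 and 2.93 peaks per 100 kb in that order. Their own peaks are included, and the part of local peak density was not tested. Of the peaks counted, 2 at RARA and 1 at NR4A1 are nearer to the end of another gene. As many peaks as RARA, 12 or more, were found at 0.475% of the 5474 genes of 30 to 100 kb, and as many as NR4A1 at 0.786%. For VDR the share was 1.90%, for RARG 1.07% of the 5491 genes of 10 to 30 kb, for NR2F2 2.22%, and for RXRA 4.92% of the 2580 genes of 100 to 300 kb. RORA, with the most peaks, was not exceptional for its length, as 14.0% of the 702 genes of 300 kb to 1 Mb had as many. Only RARB fell below the 10th percentile of its class, where 2.71% of the genes had no peak. Over all classes 1.05% of genes fell below.

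In the list used for lung epithelium, the share of receptors with a peak at a gene end was above that of the other receptors, but this order depended on which receptors were listed. The lung list was drawn up from general knowledge of airway and alveolar epithelium, with earlier results of these data known. It held NR3C1, NR3C2, RARA, RARB, RARG, RXRA, RXRB, VDR, PPARG, PPARD, NR1H2, NR1H3, THRA, ESR2, NR1D1 and NR4A1. A peak lay within 1 kb of a gene end in 13 of these 16 genes, or 81.3%, and in 16 of the other 30, or 53.3%, with the 62.3% of all protein-coding genes between them. The difference of 27.9 percentage points shrank to 17.9 with a window of 2 kb (13 of 16 against 19 of 30) and to 11.3 with one of 3 kb (13 of 16 against 21 of 30). With listed starts in place of gene ends, a count added after the data had been seen, there were 14 of 15, or 93.3%, and 14 of 26, or 53.8%, beside 64.5% of all genes. RARB was the lung-list gene without one. The highest peak of the gene was at a listed start in 10 of the 14 lung-list genes with listed starts and a peak, or 71.4%, in 9 of 23 others, or 39.1%, and in 52.4% of all such genes.

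The remaining measures were mixed. Within 10 kb, 15 of 16 lung-list genes and 27 of 30 others had a peak. The highest fold per gene had a median of 21.5 on the lung list and 24.1 among the others. A peak of 50-fold or more lay near 1 lung-list gene, VDR, and near 8 others, namely NR1H4, NR5A2, NR2F1, ESRRG, NR4A3, ESRRB, HNF4G and RORA. Inside genes a peak was found for 7 of 16 and 17 of 30. The lists were of like length, with medians of 56.0 and 49.2 kb, and had 3.41 and 2.31 peaks per 100 kb.

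The difference at gene ends has no test, since genes of 1 library are not replicates. A narrower list of NR3C1, NR3C2, RARA, RARB, RARG, RXRA, PPARG and VDR gave 5 of 8 against 24 of 38, a difference of −0.66 points. In it RARA and NR3C1 count as without a peak at an end, although each had one at a start inside the gene. The same holds for ESRRB and NR5A2 among the others, and the narrower list was not counted at listed starts. A wider list, which added NR1D2, RORA, ESRRA, NR2C1, NR2C2, NR2F2, NR2F6, PPARA and THRB, gave 22 of 25 against 7 of 21, or 54.7 points.

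**Figure D4:**
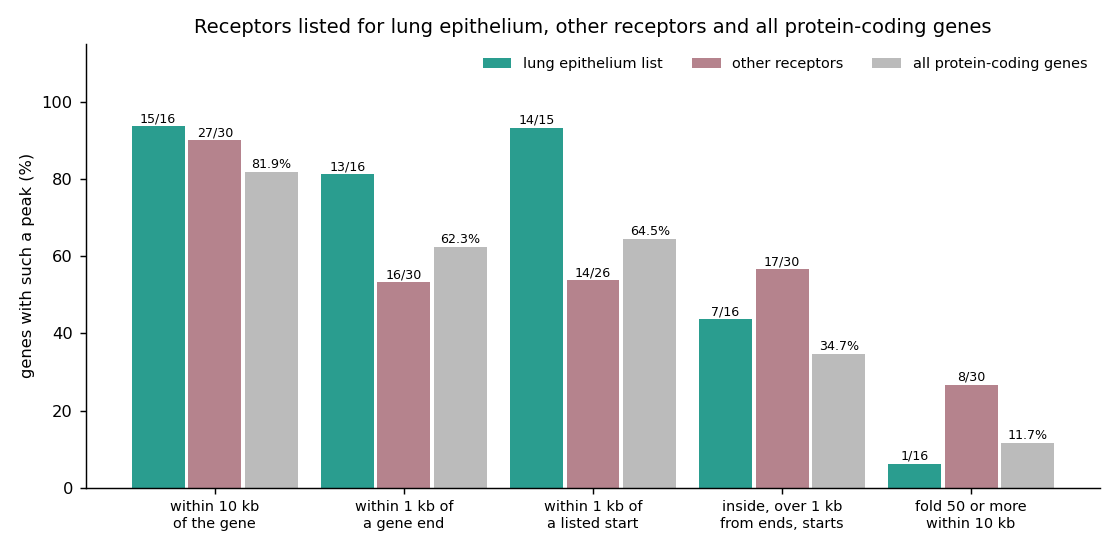
Bars give the percentage of genes with a peak under each of 5 rules (vertical axis from 0) for the 16 receptors listed for lung epithelium, the other 30 and all protein-coding genes, with the counts or the percentage printed above. The lung list is highest at gene ends and listed starts, with 13 of 16 and 14 of 15, and lowest for peaks of 50-fold or more, with 1 of 16.

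The base sequence before the starts was read from RefSeq promoters on GRCh38.p14, matched by gene identifier and chromosome for 41 receptor genes. NR0B2, NR4A2, HNF4G, VDR and NR2F6 had no entry. The 250 bases before each start were searched on both strands for GGAA, the core that ETS factors recognise, for CGGAAG, a longer site preferred by ETV4 and its relatives that contains GGAA, and for AGGTCA. The longer site CGGAAG was present before 7 of the 96 receptor starts, or 7.29%, and before 20.1% of all 22132 starts. All 7 were covered by a peak, as were 3511 of the 4458 starts of all genes that held the site. Among the 39 receptor starts whose bases were overlapped by a peak the share was 17.9%, beside 29.9% of all such starts, and among the 49 receptor starts with no peak within 1 kb it was 0, beside 8.85%.

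These 7 are shown because they are all of the receptor starts that hold the longer site. CGGAAG or its reverse complement CTTCCG is in capitals, and each sequence runs 5′ to 3′ along the gene, ending at the base before the start. NR1H2, which encodes the oxysterol receptor LXRβ, has 4 sites, and its peak summit lies 26 bases before the start, between the last pair of them.

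NR1H2 promoter, chr19:50376207-50376456 (+ strand): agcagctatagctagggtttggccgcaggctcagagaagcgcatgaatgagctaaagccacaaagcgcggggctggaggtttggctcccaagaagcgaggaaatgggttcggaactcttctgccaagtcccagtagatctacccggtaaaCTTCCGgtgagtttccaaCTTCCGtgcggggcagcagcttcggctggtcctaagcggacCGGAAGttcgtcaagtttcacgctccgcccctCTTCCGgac

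The related NR1H3 has 1 site before its second start, with first base at −16, and a weaker peak of 5.29-fold whose summit is at −139. An end of the neighbouring gene ACP2 lies 58 bases from that summit.

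NR1H3 promoter, chr11:47248645-47248894 (+ strand): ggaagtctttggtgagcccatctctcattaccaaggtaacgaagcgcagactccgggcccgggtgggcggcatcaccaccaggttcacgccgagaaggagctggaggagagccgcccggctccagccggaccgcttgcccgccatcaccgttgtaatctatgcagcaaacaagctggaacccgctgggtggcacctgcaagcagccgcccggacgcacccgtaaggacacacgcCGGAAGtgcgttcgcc

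At NR3C1 the site stands before the third of 7 starts, with first base at −56. The summit of the wide NR3C1 peak is 1914 bases further into the gene, near the seventh start, whose window follows and holds no CGGAAG.

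NR3C1 promoter, chr5:143405356-143405605 (− strand): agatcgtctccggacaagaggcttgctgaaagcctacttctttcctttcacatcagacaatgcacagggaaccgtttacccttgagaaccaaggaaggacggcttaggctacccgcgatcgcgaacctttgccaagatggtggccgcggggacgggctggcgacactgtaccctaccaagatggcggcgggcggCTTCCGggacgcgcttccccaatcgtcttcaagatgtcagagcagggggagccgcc

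NR3C1 promoter, chr5:143403284-143403533 (− strand): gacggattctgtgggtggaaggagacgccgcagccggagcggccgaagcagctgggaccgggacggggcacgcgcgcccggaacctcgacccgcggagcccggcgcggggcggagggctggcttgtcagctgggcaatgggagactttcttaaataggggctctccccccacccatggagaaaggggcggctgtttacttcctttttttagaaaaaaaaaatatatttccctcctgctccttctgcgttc

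The windows of PPARA and PPARD hold 1 site each, with first base at −123 for PPARA and −71 for PPARD. The summits lie 780 and 113 bases after the starts.

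PPARA promoter, chr22:46150276-46150525 (+ strand): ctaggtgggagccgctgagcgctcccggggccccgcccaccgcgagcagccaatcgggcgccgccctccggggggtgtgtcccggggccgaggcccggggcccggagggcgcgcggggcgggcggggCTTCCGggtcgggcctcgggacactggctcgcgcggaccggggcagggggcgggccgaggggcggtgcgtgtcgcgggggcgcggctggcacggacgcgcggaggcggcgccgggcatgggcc

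PPARD promoter, chr6:35342308-35342557 (+ strand): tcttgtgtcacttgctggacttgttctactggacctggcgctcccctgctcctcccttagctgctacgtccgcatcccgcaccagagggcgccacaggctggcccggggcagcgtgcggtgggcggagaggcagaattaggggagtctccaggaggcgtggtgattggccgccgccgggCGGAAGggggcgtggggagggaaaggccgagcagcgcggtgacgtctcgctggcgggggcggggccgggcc

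NR6A1 and RARG have their site further up, with first base at −219 and −231. The summits lie 1238 and 240 bases into the genes.

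NR6A1 promoter, chr9:124771312-124771561 (− strand): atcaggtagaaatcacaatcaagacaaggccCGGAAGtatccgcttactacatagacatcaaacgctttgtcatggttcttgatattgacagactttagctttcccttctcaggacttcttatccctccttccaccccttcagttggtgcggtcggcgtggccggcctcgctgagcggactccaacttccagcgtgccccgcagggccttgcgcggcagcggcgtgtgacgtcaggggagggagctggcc

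RARG promoter, chr12:53232210-53232459 (− strand): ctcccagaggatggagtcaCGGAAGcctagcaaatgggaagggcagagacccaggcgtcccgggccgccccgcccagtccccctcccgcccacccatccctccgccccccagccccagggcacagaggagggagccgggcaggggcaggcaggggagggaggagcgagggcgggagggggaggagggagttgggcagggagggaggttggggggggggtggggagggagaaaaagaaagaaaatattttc

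Also shown are the windows before the outermost starts of RARB and NR1I2, genes without a peak within 10 kb. They hold no CGGAAG, like most receptor starts with or without a peak. RXRG and NR2E3, which also had no peak, are not shown. The RARB window has a G+C content of 76.0% and the NR1I2 window one of 44.0%.

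RARB promoter, chr3:24829071-24829320 (+ strand): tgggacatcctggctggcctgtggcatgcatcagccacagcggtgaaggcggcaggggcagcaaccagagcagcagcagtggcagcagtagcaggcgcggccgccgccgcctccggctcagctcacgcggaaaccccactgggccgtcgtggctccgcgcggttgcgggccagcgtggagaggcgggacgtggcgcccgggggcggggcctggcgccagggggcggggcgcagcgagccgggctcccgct

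NR1I2 promoter, chr3:119781851-119782100 (+ strand): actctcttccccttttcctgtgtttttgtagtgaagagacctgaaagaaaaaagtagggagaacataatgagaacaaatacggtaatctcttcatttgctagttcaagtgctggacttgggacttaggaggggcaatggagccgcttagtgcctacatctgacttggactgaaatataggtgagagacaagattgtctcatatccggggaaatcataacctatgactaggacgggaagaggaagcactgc

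The shorter core did not separate the starts. GGAA was found before 93.8% of the receptor starts and 92.5% of all starts. The receptor motif AGGTCA was found before 15 receptor starts, or 15.6%, beside 10.5% of all starts, and before 2 of the 39 with an overlapping peak and 11 of the 49 without one, or 5.13% and 22.4%. Over all genes these shares were 7.36% and 14.5%, in the same order. Starts of 1 gene were counted separately here even where their windows overlap. The 2 receptor starts with AGGTCA and an overlapping peak were both of PPARG, at 1.692 and 1.702 kb from its 5′ end. Those without a peak include a like pair of ESR2, at 44.203 and 44.242 kb. Base composition moved with the peaks. The receptor starts with an overlapping peak had a median G+C content of 69.6% and a ratio of observed to expected CpG of 0.844, and those with no peak had 46.8% and 0.342. The same measures over all genes were 67.2% and 0.842 with a peak and 52.8% and 0.317 without. The part of base composition in these counts was not tested.

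**Figure D5:**
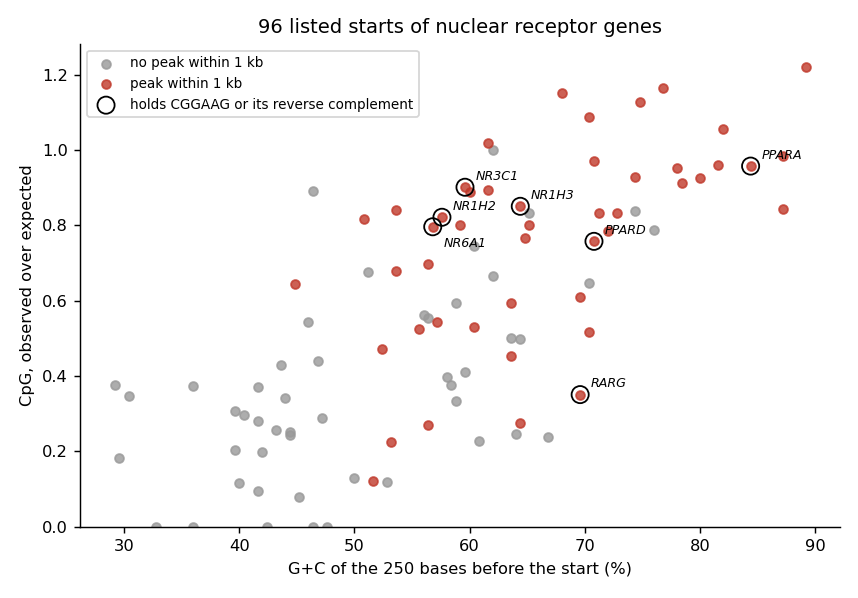
Each point is 1 of 96 listed starts of 41 receptor genes, by the G+C percentage of the 250 bases before it (horizontal) and the ratio of observed to expected CpG in them (vertical); red points have a peak within 1 kb and rings mark CGGAAG or its reverse complement. The 7 ringed starts all have a peak, and starts without one gather at low G+C and low CpG.

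The partners of the receptors were examined through a list of 20 coregulator genes and 16 textbook target genes. All 20 coregulators had a peak within 10 kb, beside 81.9% of all genes. At a gene end 17 had one, beside 62.3%, and 16 of the 17 with listed starts had one at a start, beside 64.5%. The highest folds were 116 near TBL1XR1 and 65.7 at HDAC3, both of which encode parts of the NCoR repressor complex, and 51.8 at NCOA4, a ferritin receptor first described as a coactivator. Of the 16 target genes, set against the same shares of all genes, 15 had a peak within 10 kb, 13 at a gene end, and 12 of 13 at a listed start. ANGPTL4, a PPAR target that inhibits lipoprotein lipase, had 74.9-fold, FKBP5, a glucocorticoid receptor target, 69.9-fold, and SREBF1, an oxysterol receptor target, 44.2-fold. PDK4, another PPAR target, had no peak. The median highest fold was 36.3 for coregulators and 28.5 for targets, beside 22.0 for the receptors and 22.3 for all genes. The coregulator genes are long, with a median of 141 kb, and had 2.28 peaks per 100 kb, while the target genes had a median length of 32.6 kb and 4.18 peaks per 100 kb.

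Neighbouring genes limit the assignment. Counted per gene, 22 receptor peaks that do not overlap the receptor gene are nearer to the end of another gene. They include the 4 peaks shared by neighbouring receptor genes, for which that other gene is itself a receptor. With peaks nearer to a gene outside the receptor list left out, 163 distinct receptor peaks remained. At the 10 kb limit the outermost peaks counted were at NR4A1, 9.90 kb away with 21.8-fold, ESR1, 9.81 kb with 8.19-fold, and NR2F1, 9.76 kb with 38.0-fold. The nearest ones not counted were at NR1D1, 10.5 kb with 27.0-fold, RARG, 10.6 kb with 3.81-fold, and PPARG, 10.7 kb with 6.55-fold.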

How the data were processed

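ChIP-seq peaks of 1 anti-Flag immunoprecipitate were analysed, and the input library entered only as the control of the peak list. The authors deposited, for each peak, an interval and summit on hg38, the fold enrichment (a ratio), the −log10 p-value, the −log10 q-value (lowest 1.30) and a display score, which was not used. The submitters' processing notes name Bowtie2 2.4.1, SAMtools, MACS2 2.2.7.1 and deepTools 3.5.0. Apart from a minimum fold that the study states for its peaks, the settings and the handling of duplicates are not given in the sources used here.

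The receptor genes and all lists were chosen with earlier results of these data known. Genes named in full were the 15 with the highest fold, the 5 with the most peaks, those without a peak at an end, and 8 receptors of lung interest. Gene spans came from RefSeq on GRCh38.p14, outer ends over all transcripts, and starts and sequences from its promoter table. Pileup and control were computed from the deposited fold, with a pseudocount of 1, and the Poisson p. All pileups fell within 0.01 of a whole number. This and the distance functions were tested on simulated data. The depth of the libraries is not given in the sources used here, and the pileup sets the precision of each peak. Intervals are exact Poisson at 95%. The alternatives changed the fold, q, flank, window and list. The tools were Python 3.11.15 with scipy 1.17.1, numpy 2.4.6, matplotlib 3.10.9 and pandas 2.3.3.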

Additional observations from a re-analysis of the deposited data

How the results depend on the processing

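Of 43 values recomputed under an alternative, 2 moved and 1 reversed, and the other 40 kept their direction, those that are counts within 1.5 times the reported one. Peaks of 10-fold or more near the receptors numbered 83 in place of 181. The difference between lung-list and other receptors at gene ends moved to 54.7 percentage points with the wider list and turned to −0.66 with the narrower one. It fell to 17.9 and 11.3 points with windows of 2 and 3 kb. The cause was not tested. Over all alternatives, 39 to 45 receptors had a peak within the flank used, 23 to 34 at a gene end and 22 to 30 at a listed start, and the median highest fold ran from 21.5 to 27.0. In alternatives added after the data had been seen, the difference was 39.5 points at listed starts and 33.8 points at 5′ ends. No paired analysis was possible because there was 1 immunoprecipitate and 1 input. The 1 library limits every value, and a peak of 6 fragments is counted like one of 577.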
